A study of Mus musculus with 8 samples.

Results

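Hoxa5, Hoxa7, Hoxa9, Hoxa10, Meis1, Pbx3 and Hhex, 7 homeobox genes known from acute myeloid leukemia (AML), were followed in whole bone marrow (BM) of AML mice that differ in the Gab2 adaptor gene. They were chosen by name, with earlier results of these data known, and all 7 are among the 13305 genes of the deposited count table. RNA of 8 mice was sequenced, with 1 library per mouse: 3 AML WT (Gab2+/+), 2 AML HET (Gab2+/-) and 3 AML KO (Gab2-/-). All of them were C57BL/6N mice that also carried the Mx1-Cre transgene, a heterozygous loss of Dnmt3a (Dnmt3a+/-) and homozygous Flt3ITD/ITD knock-in alleles, so the AML WT controls share each of these lesions. Mx1-Cre is driven by an interferon-inducible promoter that is not restricted to leukemic cells, the BM was not sorted, and the age of the mice is not given in the sources used here.

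Hoxa genes encode homeodomain transcription factors that are made in hematopoietic stem and progenitor cells (HSPC) and decline as myeloid cells mature. Hoxa9 binds DNA together with cofactors of the TALE homeodomain class, of which Meis1 and Pbx3 are the best known in leukemia, and persistent expression of this module maintains self-renewal in several kinds of AML. Flt3, which carries the internal tandem duplication in these mice, is itself a known target of Hoxa9 and Meis1. Hhex encodes a homeodomain protein of early blood and endothelial cells that mostly represses transcription.

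Hoxa5, Hoxa7, Hoxa9, Hoxa10 and Meis1 were each higher in all 3 AML KO than in all 3 AML WT mice, by 1.23-fold to 1.77-fold, whereas Pbx3 and Hhex overlapped between these groups. Among all 13305 genes, 12.3% were likewise higher in every AML KO than in every AML WT mouse. None of the differences in the named genes passed the test after adjustment over all 13305 genes, whereas 2.09% of all genes did. Meis1 came nearest, at 22.3 ± 3.14 CPM (SD, n = 3) in AML KO against 15.2 ± 1.08 (SD, n = 3) in AML WT BM. CPM are counts scaled to a common library size, after normalization of the libraries with the TMM method. Adjusted p were obtained by the Benjamini-Hochberg method from the quasi-likelihood test of edgeR, with a threshold of 0.05.

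Libraries held 28009258 to 39266815 counts, and every member had at least 41 counts in each library. Gab2 itself was at 61.6 to 93.9 CPM in AML WT, 50.8 and 55.8 CPM in AML HET and 35.0 to 47.2 CPM in AML KO mice, and fell by 0.87 on the log2 scale from AML WT to AML KO (standard error 0.18, adjusted p = 0.042 by edgeR). The paper describes a Gab2 KO allele in which a neomycin cassette takes the place of part of the exons. Counts over the whole gene do not show which exons these reads came from. Markers of BM cell types were present, with none of the fixed markers in the table at 0 in any library, but their sums differed between groups: HSPC markers were at 1520 to 1620 summed CPM in AML WT and 1930 to 2150 in AML KO BM, mature neutrophil markers at 1700 to 5090 and 10900 to 17600, erythroid markers at 338 to 472 and 1630 to 5650, megakaryocyte and platelet markers at 328 to 367 and 650 to 874, and basophil, mast cell and eosinophil markers at 117 to 165 and 284 to 454. Monocyte and macrophage markers overlapped in sum, at 15900 to 17200 in AML WT and 11000 to 17200 in AML KO BM, but 16 of 17 had a log2 fold change below 0 and 4 fell past the threshold. In bulk BM, more cells of a type and more RNA per cell cannot be told apart, and the part of these shifts in the levels of the 7 genes was not tested.

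The 4 Hoxa genes lie in 1 cluster on the minus strand of chromosome 6 (GENCODE M21, GRCm38): Hoxa5 at chr6:52201754-52204587, Hoxa7 at chr6:52214491-52221854, Hoxa9 at chr6:52223100-52231089 and Hoxa10 at chr6:52231197-52240854. Meis1 spans chr11:18879817-19018985 and Pbx3 spans chr2:34171457-34373142, both on the minus strand, and Hhex spans chr19:37434810-37440731 on the plus strand. Exons of Hoxa7 share 586 bases with the antisense gene Hoxaas3. The strand setting of the counting is not given in the sources used here, so reads of Hoxa7 and Hoxaas3 cannot be told apart over those bases. Hoxaas3 was at 0.787 to 1.35 CPM in AML WT and 0.801 to 1.24 CPM in AML KO BM, far below Hoxa7. Exons of Meis1 share 1029 bases with Gm37818 on the same strand and 896 bases with Gm16140 on the opposite strand. Hoxa9 shares 85 bases with Mir196b on the same strand. None of these overlapping genes of Meis1 and Hoxa9 is listed in the count table, and how reads over the shared bases were assigned is not given.

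Promoters are shown for Hoxa7 and Meis1, which had the smallest p of the 7 genes, for Hoxa9 as the centre of the module, and for Hhex, whose level hardly differed. Each is the window from 250 bases before to 50 bases after a start site of the RefSeq table (GRCm38.p6), 5′ to 3′ on the strand of the gene, with CG dinucleotides, the sites of DNA methylation, in capitals. All mice lack a Dnmt3a allele, whose product methylates such sites, and DNA methylation was not part of these files. The windows are chr6:52218524-52218823 for Hoxa7, chr6:52227321-52227620 for Hoxa9, chr11:19018920-19019219 for Meis1 and chr19:37434591-37434890 for Hhex.

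Hoxa7: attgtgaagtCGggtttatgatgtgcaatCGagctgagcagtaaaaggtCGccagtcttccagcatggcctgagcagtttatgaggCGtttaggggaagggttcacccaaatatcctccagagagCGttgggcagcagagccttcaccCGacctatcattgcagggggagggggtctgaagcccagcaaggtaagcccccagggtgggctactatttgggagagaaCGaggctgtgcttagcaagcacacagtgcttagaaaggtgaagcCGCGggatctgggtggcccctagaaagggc

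Hoxa9: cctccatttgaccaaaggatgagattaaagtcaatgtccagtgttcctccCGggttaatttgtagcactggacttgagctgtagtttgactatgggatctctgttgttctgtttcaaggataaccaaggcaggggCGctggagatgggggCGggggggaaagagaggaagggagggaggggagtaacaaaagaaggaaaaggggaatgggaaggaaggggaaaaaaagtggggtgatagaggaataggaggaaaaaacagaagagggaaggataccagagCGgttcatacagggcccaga

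Meis1: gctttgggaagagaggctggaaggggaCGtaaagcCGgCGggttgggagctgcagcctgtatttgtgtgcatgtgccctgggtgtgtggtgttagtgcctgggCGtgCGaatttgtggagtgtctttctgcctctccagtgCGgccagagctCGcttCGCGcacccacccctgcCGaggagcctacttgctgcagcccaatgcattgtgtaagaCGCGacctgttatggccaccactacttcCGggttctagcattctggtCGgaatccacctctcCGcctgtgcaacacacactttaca

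Hhex: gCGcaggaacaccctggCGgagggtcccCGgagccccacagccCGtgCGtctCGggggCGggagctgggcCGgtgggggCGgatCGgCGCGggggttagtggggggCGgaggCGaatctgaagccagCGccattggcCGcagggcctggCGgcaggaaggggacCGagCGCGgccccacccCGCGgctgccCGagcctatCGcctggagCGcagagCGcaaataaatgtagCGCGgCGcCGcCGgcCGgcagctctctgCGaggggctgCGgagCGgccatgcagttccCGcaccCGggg

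The Hhex window holds 37 CG dinucleotides, more than 94.4% of all 32851 RefSeq windows of this length. Meis1 holds 15, Hoxa7 holds 9 and Hoxa9 holds 4, against a median of 7 over all windows, so Hoxa9 lies in the lower part of that distribution. The Hoxa5 window, which is not printed, has 29 and both Hoxa10 windows have 12 and 21. On either strand, none of the 7 windows of the 6 genes found in this table contains TGATTNAT, a PBX-HOX composite motif present in 3.22% of all windows, TGACAG, a MEIS motif present in 19.2%, or TTCNNNGAA, a STAT5 motif present in 8.3%. Such a result says only that these letters are not in these windows.

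Per kilobase of exon, which allows levels to be compared between genes, Hhex was by far the most abundant of the 7 in AML WT BM, at 15.7 ± 1.34 CPM per kb (SD, n = 3). Hoxa7 followed at 4.04 ± 0.249 and Hoxa9 at 2.96 ± 0.0907 CPM per kb. Meis1 was at 1.44 ± 0.102, Hoxa5 at 1.35 ± 0.242 and Pbx3 at 1.11 ± 0.13 CPM per kb, and Hoxa10 was the lowest at 0.403 ± 0.0541. Among neighbours in this order, Meis1 and Hoxa5 overlapped between mice, as did Hoxa5 and Pbx3, while all other neighbours were apart in the 3 AML WT mice. Hhex stood at the 74.7th percentile of all genes in the table and Hoxa10 at the 7.96th, with Hoxa7 at the 40.5th and Hoxa9 at the 34.2nd. When length was taken from the longest transcript, Pbx3 moved ahead of Meis1 and Hoxa5, and the other 4 genes kept their ranks.

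**Figure D1:**
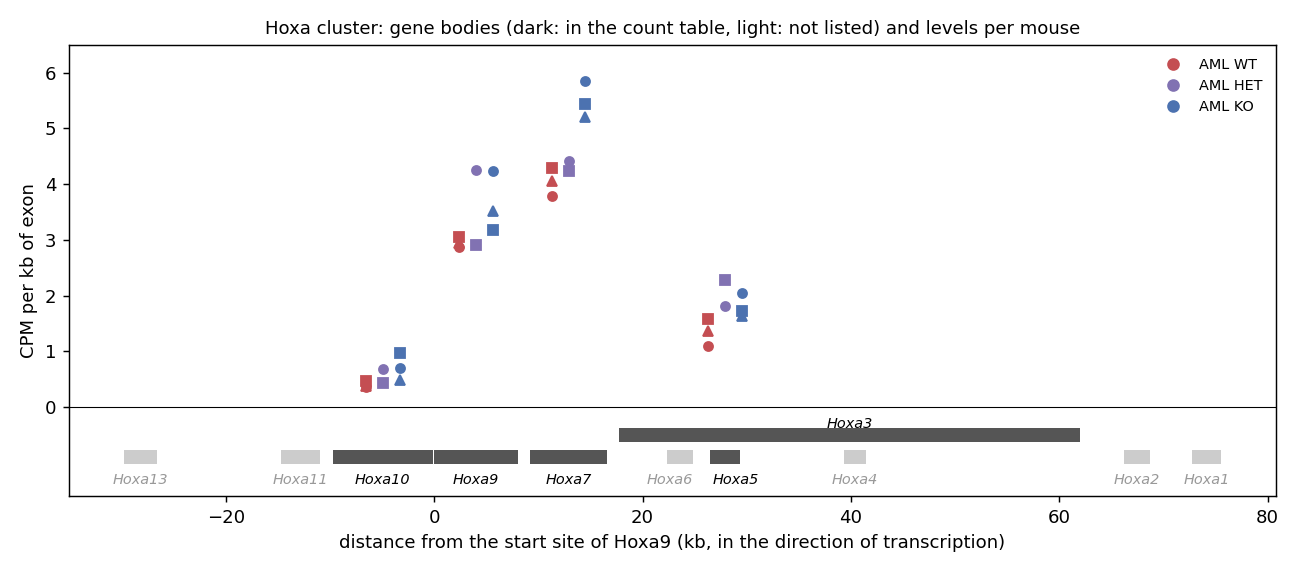
Level of the 4 Hoxa genes in CPM per kb of exon (vertical axis, 1 point per mouse with its shape giving the replicate number, red AML WT, purple AML HET, blue AML KO) above the gene bodies of the Hoxa cluster, placed by distance in kb from the start site of Hoxa9; dark gene bodies are in the count table and light ones are not listed. Hoxa7, at 3.78 to 4.28 CPM per kb in AML WT and 5.21 to 5.84 in AML KO mice, was the highest of the 4, and Hoxa10 the lowest.

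Of 11 annotated Hoxa genes over 105.3 kb, 5 are listed in the table: Hoxa3, Hoxa5, Hoxa7, Hoxa9 and Hoxa10. The map of the cluster shows that Hoxa7 and Hoxa9, which are adjacent, had the highest levels per kb, and that levels dropped on either side, to Hoxa10 and to Hoxa5. Hoxa3, the listed gene that is no member, was lower than all of them, at 0.207 ± 0.0526 CPM per kb in AML WT BM (SD, n = 3), and overlapped between AML WT and AML KO mice. Of 30 Hoxb, Hoxc and Hoxd genes and transcripts looked for, only Hoxb4 is listed, at 1.81 ± 0.428 CPM per kb in AML WT BM. The lowest total over the 8 mice in the table is 106 counts, so rare transcripts are left out of it and an unlisted Hox gene is not shown to be silent.

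Hoxa7, a neighbour of Hoxa9 that can transform myeloid progenitors when overexpressed, was at 10.9, 12.3 and 11.7 CPM in the AML WT mice, 12.7 and 12.2 CPM in the AML HET mice and 16.8, 15.6 and 15.0 CPM in the AML KO mice. All 3 AML KO mice were above the other 5 mice, and the AML HET mice lay close to AML WT. The log2 fold change of AML KO over AML WT was 0.44 (standard error 0.14, 95% interval 0.13 to 0.76), with an unadjusted p of 0.0106 and an adjusted p of 0.176.

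Hoxa9, the factor whose expression is most closely tied to poor outcome in human AML, was at 16.0, 17.0 and 16.4 CPM in AML WT, 23.7 and 16.3 CPM in AML HET and 23.6, 17.7 and 19.6 CPM in AML KO mice. Its 3 AML WT values were close together, while both other groups were spread out, and AML HET replicate 1 was as high as the highest AML KO mouse. Its log2 fold change, AML KO over AML WT, was 0.30 (standard error 0.18, 95% interval −0.10 to 0.70, adjusted p = 0.371), and without AML KO replicate 1 it was 0.18.

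Hoxa5 and Hoxa10 were the least abundant of the 4, with 84 to 134 and 41 to 87 counts per library, so that counting error adds to the spread between mice. Hoxa5 was at 2.07, 2.97 and 2.57 CPM in AML WT, 3.40 and 4.27 CPM in AML HET and 3.83, 3.24 and 3.06 CPM in AML KO mice. Both other groups lay above AML WT, but the lowest AML KO mouse exceeded the highest AML WT mouse by little. For Hoxa5 the AML KO over AML WT log2 fold change was 0.41 (standard error 0.24, 95% interval −0.13 to 0.96, adjusted p = 0.372), and it was 0.27 without AML WT replicate 1.

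Hoxa10, which is expressed in early myeloid progenitors, was at 1.18, 1.52 and 1.26 CPM in AML WT, 2.21 and 1.43 CPM in AML HET and 2.29, 3.17 and 1.56 CPM in AML KO mice. AML KO replicate 3 was only just above the highest AML WT mouse, and AML KO replicate 2 was the highest of all. The log2 fold change of Hoxa10 was the largest of the 7 genes, at 0.82, and also the least precise (standard error 0.34, 95% interval 0.07 to 1.58, adjusted p = 0.261). Without AML KO replicate 2 it was 0.54.

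Meis1, the TALE partner that speeds up Hoxa9-driven leukemia, was at 16.4, 14.4 and 14.7 CPM in AML WT, 20.2 and 17.1 CPM in AML HET and 25.7, 19.6 and 21.5 CPM in AML KO mice. Every AML HET and AML KO mouse was above every AML WT mouse, and AML HET replicate 1 was within the range of AML KO. The log2 fold change of AML KO over AML WT was 0.56 (standard error 0.15, 95% interval 0.21 to 0.90), with an unadjusted p of 0.00506 and an adjusted p of 0.123.

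Pbx3, which stabilizes complexes of Hoxa9 and Meis1, was at 7.33, 7.08 and 5.85 CPM in AML WT, 7.92 and 8.13 CPM in AML HET and 5.46, 8.26 and 7.28 CPM in AML KO mice. The AML KO mice held both the lowest and the highest value of all 8. Its log2 fold change, AML KO over AML WT, was 0.05 (95% interval −0.42 to 0.52, adjusted p = 0.907), and its sign turned to −0.08 without AML KO replicate 2 and to −0.04 without AML WT replicate 3.

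Hhex, the repressor, was at 75.7, 87.0 and 75.0 CPM in AML WT, 79.8 and 75.6 CPM in AML HET and 76.9, 88.2 and 84.6 CPM in AML KO mice. The groups overlapped, and the interval was the narrowest of the 7 genes. The log2 fold change of AML KO over AML WT was 0.07 (standard error 0.12, 95% interval −0.19 to 0.33, adjusted p = 0.752).

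**Figure D2:**
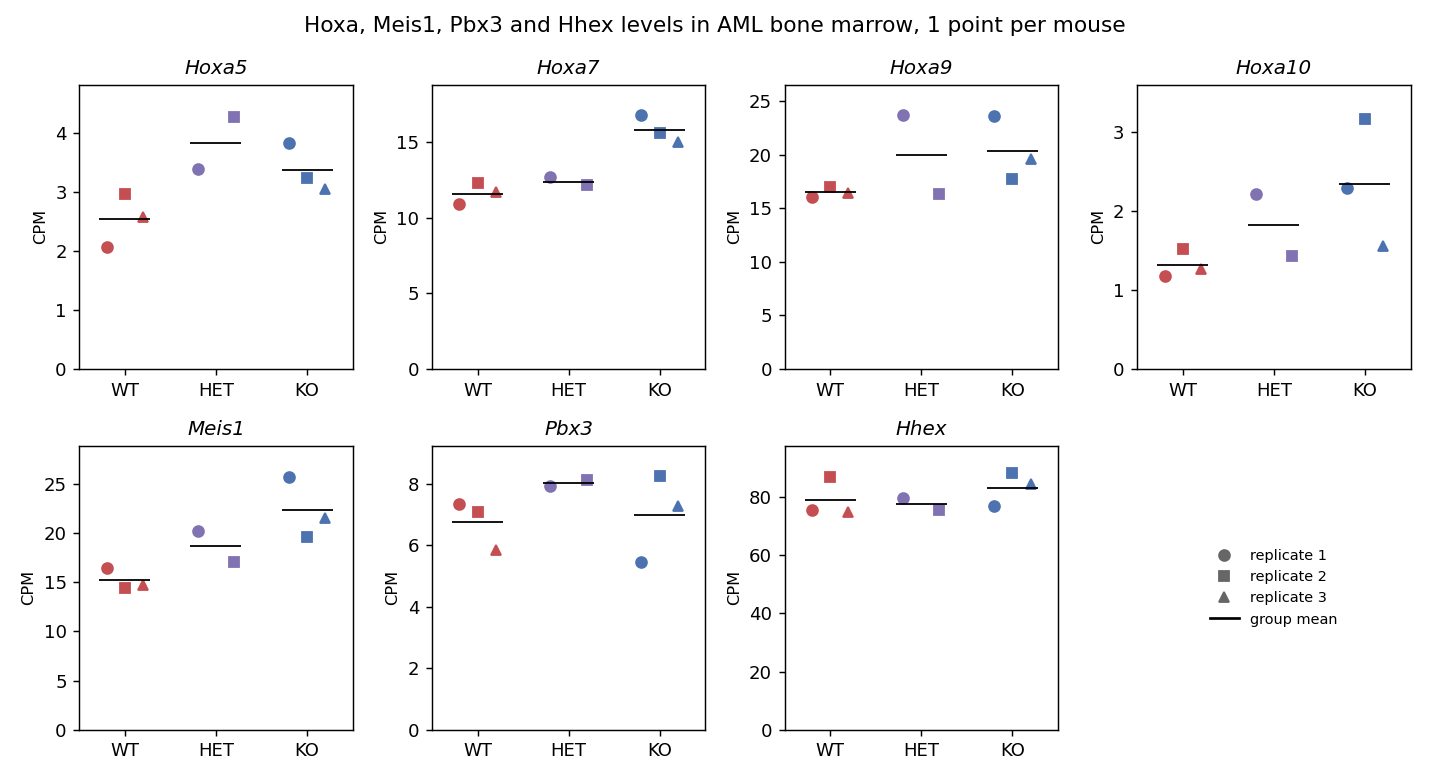
Level of each of the 7 genes in CPM (vertical axes, starting at 0) by Gab2 genotype; each point is a mouse, its shape gives the replicate number and the bar is the group mean. All AML KO mice are above all AML WT mice for Hoxa5, Hoxa7, Hoxa9, Hoxa10 and Meis1, and overlap with them for Pbx3 and Hhex.

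Counted over the 7 genes, 0 passed the threshold between AML KO and AML WT, where 2.09% of all genes did, and adjusted p from edgeR ran from 0.123 to 0.907. An unadjusted p under 0.05 was reached by 3 of the 7 (Hoxa7, Hoxa10 and Meis1), against 17.7% of all genes. All 7 log2 fold changes were above 0, as were 48.1% of those of all genes, but Pbx3 (0.05) and Hhex (0.07) were near 0. The median of the 7 was 0.41, while the median of all genes was −0.017. The 5 genes whose groups do not overlap were all higher in AML KO, a pattern that 12.3% of all genes show. DESeq2 called Meis1 (adjusted p = 0.0249) and Hoxa7 (adjusted p = 0.0472), in a test that called 5.49% of all genes.

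Between AML HET and AML WT, 0 of the 7 passed the threshold and 0 had an unadjusted p under 0.05 from edgeR, and DESeq2 also called 0. Of all genes, 0.0225% passed it by edgeR and 0.444% by DESeq2, and 2.47% had such an unadjusted p. Both AML HET mice were above all AML WT mice for Hoxa5, Meis1 and Pbx3, and 9.53% of all genes show this. Hoxa5 had the largest log2 fold change of the 7, at 0.60 (standard error 0.27, 95% interval −0.01 to 1.20), followed by Hoxa10 at 0.47, Meis1 at 0.30, Hoxa9 at 0.28, Pbx3 at 0.25, Hoxa7 at 0.10 and Hhex at −0.03, with adjusted p from 0.99 to 0.994 by edgeR. Several of these values rest on single mice. Without AML HET replicate 1 and without AML HET replicate 2, respectively, Hoxa9 was at −0.02 and 0.52, Hoxa10 at 0.12 and 0.75 and Meis1 at 0.17 and 0.42, and Hoxa7 was at 0.06 without AML WT replicate 1.

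Between AML KO and AML HET, 0 of the 7 passed edgeR's threshold, 0 had an unadjusted p under 0.05 and DESeq2 called 0, while of all genes 0% passed by edgeR and 0.579% by DESeq2 and 5.86% had such an unadjusted p. Hoxa7 was the only member whose groups did not overlap, at 0.34 on the log2 scale (standard error 0.16, 95% interval −0.01 to 0.70, adjusted p = 0.836), and 13.2% of all genes are higher in this way. Hoxa5 and Pbx3 had log2 fold changes below 0, at −0.18 and −0.20, which became −0.01 without AML HET replicate 2 for Hoxa5 and −0.04 without AML KO replicate 1 for Pbx3. These 3 comparisons share mice, so their values are given side by side and not as separate evidence.

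**Figure D3:**
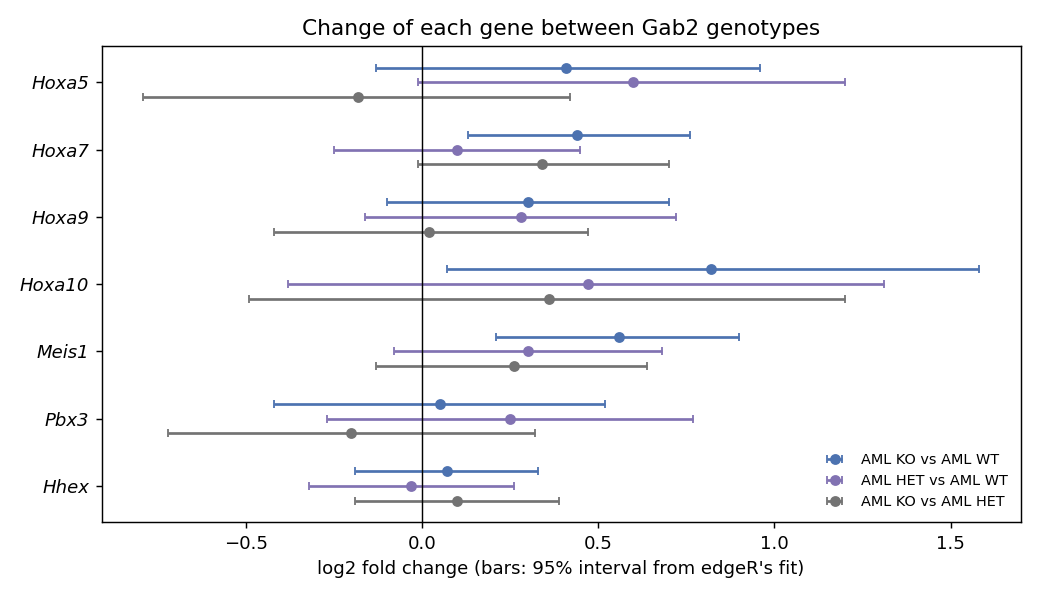
Log2 fold change of each of the 7 genes (horizontal axis) between AML KO and AML WT (blue), AML HET and AML WT (purple) and AML KO and AML HET (grey), with 95% intervals from edgeR's fit over all 8 mice as bars. The blue intervals of Hoxa7, Hoxa10 and Meis1 lie above 0, before adjustment over all genes, and no purple or grey interval does.

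The number of functional Gab2 alleles was also fitted as a number over all 8 mice, which assumes equal steps on the log2 scale. Meis1 was higher by 0.28 on the log2 scale per allele lost (standard error 0.07, 95% interval 0.12 to 0.44, adjusted p = 0.0762), Hoxa7 by 0.22 (standard error 0.07, adjusted p = 0.127) and Hoxa10 by 0.41 (standard error 0.16, adjusted p = 0.201). By edgeR, 0 of the 7 passed the threshold, 3 had an unadjusted p under 0.05, and of all genes 2.64% passed it and 20.2% had such an unadjusted p. Without AML KO replicate 2, Meis1 passed it at 0.32 per allele (adjusted p = 0.0419). DESeq2 called Meis1 (adjusted p = 0.0089) and Hoxa7 (adjusted p = 0.0251), among 6.5% of all genes. The AML HET mean lay between the other means for Hoxa7, Hoxa9, Hoxa10 and Meis1, 4 of the 7, as it did for 53.3% of all genes.

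The 7 genes were not highest in the same mice. Above every AML WT mouse were 7 of the 7 genes in AML KO replicate 2, 5 in each of the other AML KO mice, 6 in AML HET replicate 1 and 3 in AML HET replicate 2. The 5 genes without overlap between AML KO and AML WT count in every AML KO mouse by definition. For single mice the share of all genes is not given here, so these counts only describe the 7 genes. AML KO replicate 1 had the highest Hoxa7 and Meis1 of all mice and the lowest Pbx3, AML KO replicate 2 had the highest Hoxa10, Pbx3 and Hhex, and the AML HET mice had the highest Hoxa9 and Hoxa5. AML WT replicate 1 was the lowest mouse for 4 of the 7.

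Ratios within a library do not depend on library size. In counts per kb, Meis1 was at 0.541, 0.446 and 0.475 of the Hoxa9 level in the AML WT mice, 0.452 and 0.557 in the AML HET mice and 0.577, 0.588 and 0.58 in the AML KO mice. The 3 AML KO ratios were nearly equal and all above AML WT, although the AML KO levels of both genes differed between mice. On the log2 scale the ratio was higher by 0.26 in AML KO than in AML WT (exact two-sided permutation test, p = 0.1, the smallest that 3 against 3 mice allow, and 0.4 when adjusted over 6 ratios). The other 5 ratios to Hoxa9 overlapped between these groups, from −0.25 for Pbx3 and −0.22 for Hhex to 0.13 for Hoxa5, 0.15 for Hoxa7 and 0.49 for Hoxa10, with exact two-sided permutation p from 0.2 to 0.7. Single mice carried these values. Without AML KO replicate 1 the Pbx3 ratio turned to 0.03 and the Hhex ratio became −0.05, without AML KO replicate 2 the Hoxa10 ratio became 0.14 and the Hoxa7 ratio 0.07, and without AML WT replicate 1 the Hoxa5 ratio became 0.01. The Pbx3 ratio spread most widely among the AML KO mice, at 0.211, 0.427 and 0.339.

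**Figure D4:**
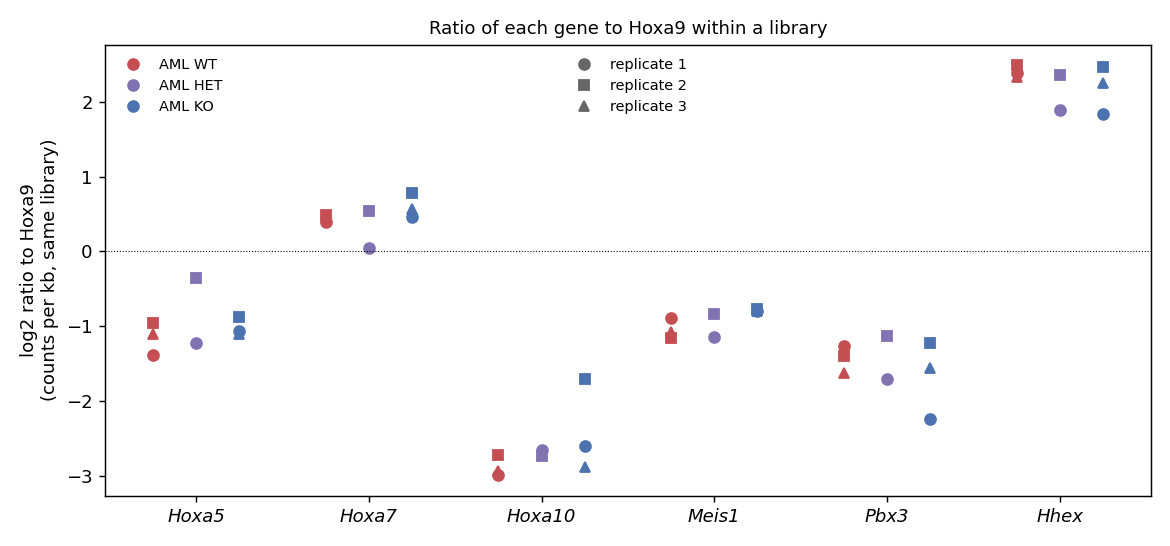
Ratio of each gene to Hoxa9 in the same library, in counts per kb on the log2 scale (vertical axis), with AML WT in red, AML HET in purple, AML KO in blue and the shape giving the replicate number. Only the Meis1 ratio is higher in every AML KO than in every AML WT mouse, at −0.79 to −0.77 against −1.16 to −0.89.

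Likeness between genes was measured as the root mean square difference of their log2 CPM over the 8 mice, each centred on its own mean, so small values mean similar profiles. Among the 21 pairs of members, Hoxa7 and Meis1 were most alike at 0.149, then Hoxa9 and Meis1 at 0.157 and Pbx3 and Hhex at 0.185. Hoxa10 and Pbx3 were least alike at 0.454. Over the whole table, the genes nearest to Hoxa7 were Cep19 (0.052), Dtnb (0.056) and Spc24 (0.058), those nearest to Meis1 were Gm17586 (0.089), Epb41l4b (0.091) and Spc25 (0.095), and those nearest to Hoxa9 were Cradd (0.097), Fam151b (0.099) and Rgs18 (0.1). Hoxa5 was nearest to Ppp2r5b (0.12), Hoxa10 to Gm4149 (0.194) and Hhex to Rcsd1 (0.039). All points share the same 8 libraries, and the nearest genes were picked from all 13305.

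Meis1 and Pbx3 have relatives in the TALE homeobox class. Among them, Pbx4 had a log2 fold change of 0.70 in AML KO over AML WT (adjusted p = 0.293 from edgeR), Pbx2 of 0.21 (adjusted p = 0.504) and Meis3 of −0.42 (adjusted p = 0.561). Hoxb4, a Hox gene of stem cells, was at 3.44, 4.87 and 5.60 CPM in AML WT and 9.32, 5.02 and 8.52 CPM in AML KO mice, which overlap (log2 fold change 0.72, adjusted p = 0.246).

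Genes described as targets of Hoxa9 and Meis1 were taken from a fixed list, of which 29 are in the table: 2 rose and 0 fell between AML WT and AML KO, where 1.77% of all genes rose and 0.323% fell, and the median log2 fold change was 0.01. Cd34, a surface marker of progenitors, was at 176, 168 and 194 CPM in AML WT, 246 and 205 CPM in AML HET and 349, 270 and 279 CPM in AML KO mice (log2 fold change 0.74, standard error 0.14, adjusted p = 0.0277 from edgeR). Gfi1b, a repressor needed by erythroid cells and megakaryocytes, was at 2.43 to 3.21 CPM in AML WT and 6.75 to 15.6 CPM in AML KO mice (log2 fold change 1.76, adjusted p = 0.0374). Both are also expressed in lineages whose markers were higher in AML KO BM, and the part of these lineages was not tested. The adjusted p of Cd34 was 0.0713 to 0.132 without AML WT replicate 1 or 2 or AML KO replicate 1 or 3, and that of Gfi1b was 0.0546 to 0.155 in 7 of 8 fits that left out a mouse. Mycn, a proto-oncogene of the Myc family, missed the threshold at a log2 fold change of 0.78 (adjusted p = 0.0532) but passed it in the fit per functional Gab2 allele, at 0.39 per allele lost (adjusted p = 0.0305 by edgeR). Flt3 had a log2 fold change of −0.11.

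Of 16 genes linked to Hhex, 1 rose and 1 fell, with a median log2 fold change of −0.17. Tie1, an endothelial receptor kinase that is also made by progenitors, rose from 9.27, 11.8 and 13.4 CPM in AML WT to 27.8, 32.6 and 21.5 CPM in AML KO mice (log2 fold change 1.25, adjusted p = 0.0152). Leaving out AML WT replicate 2 gave an adjusted p of 0.0794. Ccnd1, a cyclin of early cell cycle entry, fell from 17.5, 16.2 and 26.5 CPM to 4.55, 9.28 and 5.54 CPM (log2 fold change −1.64, adjusted p = 0.0294), and was at 0.0519 to 0.141 when any of the 3 AML WT mice or AML KO replicate 1 or 3 was left out. Cdkn2c, a cell cycle inhibitor of the same list, had a log2 fold change of 0.36 (adjusted p = 0.331).

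From a list on Meis1 in stem cells, hypoxia and megakaryocytes, Pf4 and Vwf rose, with log2 fold changes of 3.99 and 1.85 (adjusted p = 0.00206 and 0.00884 from edgeR). Both are made by megakaryocytes, whose marker list, which also holds them, rose in 12 of 14 cases. For Vwf the adjusted p became 0.0579 when AML WT replicate 2 was left out. Hif1a, the hypoxia factor that Meis1 regulates in stem cells, had a log2 fold change of −0.62 (adjusted p = 0.26). The HSPC markers, expressed in the same cells as the Hoxa genes, rose in 7 of 22 cases with a median log2 fold change of 0.46, against 0.41 for the 7 homeobox genes.

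**Figure D5:**
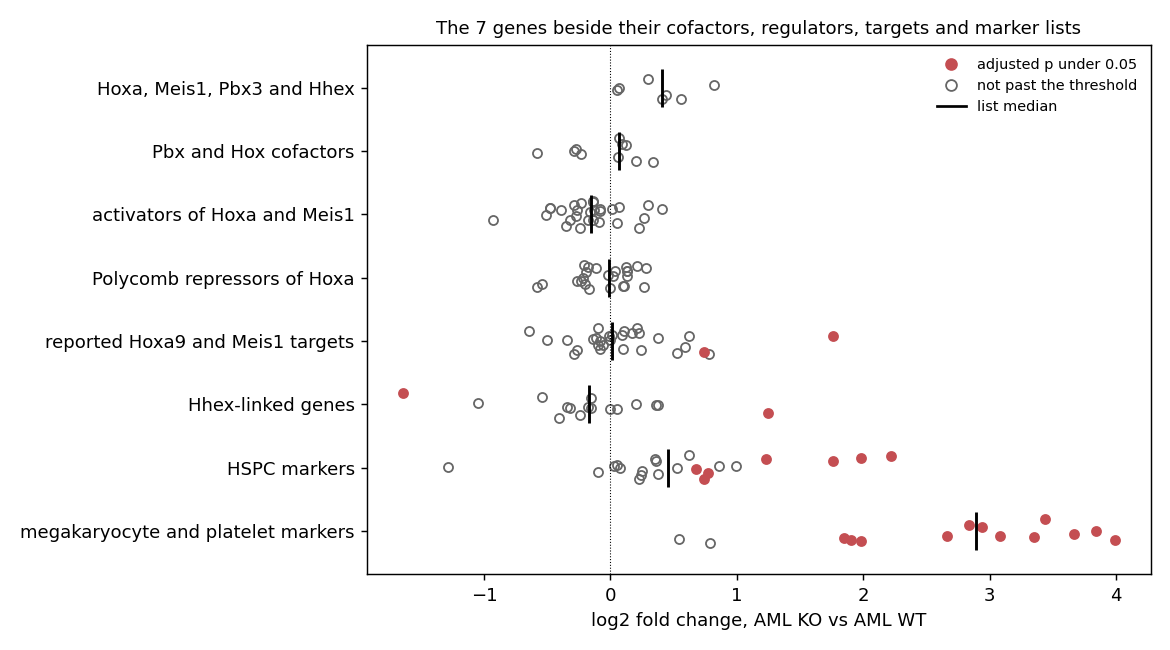
Log2 fold change of AML KO over AML WT (horizontal axis) for the 7 homeobox genes and of 7 gene lists, 1 point per gene, with red points past the adjusted threshold of 0.05 and black bars at list medians. No homeobox gene of the 7 is red and their median is 0.41, while the median of the target list is 0.01 and most megakaryocyte and platelet markers are red.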

How the data were processed

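RNA was extracted from freshly isolated whole BM and sequenced on an Illumina HiSeq4000. The authors deposited raw counts per gene for 8 mice, without normalization, and every column was used. The submitters' processing notes name Trimmomatic 0.36, STAR 2.5.2b and mm10, while the counter, its annotation and strand setting and the filter on low counts are not given in the sources used here. Of 13305 Ensembl identifiers, 13266 were found in GENCODE M21.

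Differential expression was computed with edgeR 4.0.16 (TMM, robust quasi-likelihood test, genotype as the only term, all 8 mice), limma 3.58.1 and DESeq2 1.42.0 under R 4.3.3. Standard errors were derived from the F statistic. Likeness used log2 CPM with a prior count of 2. No source says more of the replicates than that each is a separate mouse. The test was checked on simulated counts.

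The 7 genes and the gene lists were chosen with earlier results of these data known. Named are the 7 genes, Gab2, list genes past the threshold in any comparison, the 3 largest changes of each list and the 3 genes most like each member, though not every such gene is reported here. Kmt2a, Pbx2, Flt3, Hif1a and Cdkn2c were added with their values known. Tried as alternatives were DESeq2 with and without independent filtering, limma-voom, RLE and upper-quartile normalization, library sizes without erythroid, platelet and neutrophil markers, at least 10 counts in every library, at least 1 CPM in 2 libraries, a replicate block, only the groups compared, a fit that was not robust, and each mouse left out in turn. Methylation and protein data were not analysed here.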

Additional observations from a re-analysis of the deposited data

How the results depend on the processing

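The number of the 7 genes past the threshold was 0 in each of the 3 comparisons under every alternative except DESeq2, with independent filtering on or off, which called 2 between AML KO and AML WT and 2 per functional allele, Meis1 and Hoxa7 each time. With a mouse left out it stayed at 0 in the 3 comparisons and was 0 to 1 per functional allele. When a mouse was left out, the log2 fold change of Pbx3 between AML KO and AML WT ran from −0.08 to 0.20, that of Hhex between AML HET and AML WT from −0.07 to 0.04 and that of Hoxa9 from −0.02 to 0.52 between AML HET and AML WT and from −0.22 to 0.32 between AML KO and AML HET, while Pbx3 per allele lost ran from −0.03 to 0.11, so these signs depend on single mice. Without an AML HET mouse, the remaining one was assumed to vary like the other groups. Ratios to Hoxa9 that did not overlap numbered 1 to 3 of 6, and list genes called, 8 of 124 outside the marker lists, numbered 2 (without AML WT replicate 2) to 10. With lengths of the longest transcript, 4 of 7 ranks were the same.

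With a replicate block, 0 of the 7 genes passed in any comparison and 19 of all genes did between AML KO and AML WT, against 278 without it, 730 with DESeq2 and 40 (without AML WT replicate 2) to 370 (without AML KO replicate 2) with a mouse left out. Whether the numbers pair mice is not stated in the sources used here. Same-numbered deviations from the group mean correlated at −0.51, −0.11 and −0.13 between AML WT and AML KO. They correlated at 0.08 and 0.29 between AML WT and AML HET, and at −0.14 and −0.04 between AML HET and AML KO. With 2 to 3 mice per group, such correlations cannot show or exclude a pairing. Under the block, adjusted p was 0.0919 for Tie1, 0.107 for Cd34, 0.154 for Ccnd1, 0.164 for Gfi1b and 0.0549 for Vwf. Gfi1b was at 0.0586 with limma-voom and 0.0564 with only the groups compared. No scaling moved the median of all genes by more than 0.025 (log2). With 2 to 3 mice per group, the spread between mice limits all 7 genes, and Hoxa5 and Hoxa10 are also limited by their counts.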

Other observations

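Regulators that act on the Hoxa cluster and Meis1 were followed as well. Of all genes, 2.09% passed edgeR's threshold between AML KO and AML WT and 17.7% had an unadjusted p under 0.05. A log2 fold change above 0 was found for 48.1% of them. Of 28 activators in the table, such as the histone methyltransferase Kmt2a and the chromatin readers and nuclear pore genes linked to Hoxa expression, 0 passed edgeR's threshold between AML KO and AML WT, 4 had an unadjusted p under 0.05, and 21 had a log2 fold change below 0, with a median of −0.15 against −0.017 for all genes. Nup98, a nuclear pore gene found in leukemia fusions, was at 69.6, 32.2 and 29.9 CPM in AML WT, 24.0 and 27.1 CPM in AML HET and 11.2, 33.4 and 24.8 CPM in AML KO mice, which overlap (log2 fold change −0.93, adjusted p = 0.28). Kmt2a had a log2 fold change of −0.39 (adjusted p = 0.325).

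Of 24 Polycomb genes, which silence the Hoxa cluster, 0 passed the threshold and 1 had an unadjusted p under 0.05 by edgeR, with 12 log2 fold changes above and 12 below 0 and a median of −0.01. The largest were Kdm2b at −0.58 (adjusted p = 0.344) and Asxl2 at −0.54 (adjusted p = 0.275). Of 10 cofactors of Pbx and Hox proteins, 0 passed and 2 had an unadjusted p under 0.05: Ep300, a histone acetyltransferase, at −0.58 (adjusted p = 0.264) and Hmgb2, a DNA-bending protein, at 0.34 (adjusted p = 0.245).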
